A study of Mus musculus with 4 samples.

Results

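Heat shock proteins and their co-chaperones were examined in mouse CD4 T cells grown under TH17-polarising conditions with or without JQ1. The genes were chosen by name, with earlier results of these data known. They were 10 genes of the cytosolic and mitochondrial folding machinery: Hspa1a, Hspa1b, Hspa8, Hsp90aa1, Hsp90ab1, Dnajb1, Hsph1, Hspd1, Hspe1 and the transcription factor Hsf1. A gene entered where a row of the deposited table was annotated to it alone, and of several such rows the brightest was used. This left 4 of the 10, Hspa1a, Hsp90aa1, Dnajb1 and Hsph1, out of 14860 genes named in the series. The other 6 (Hspa1b, Hspa8, Hsp90ab1, Hspd1, Hspe1 and Hsf1) were not analysed here.

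All samples were naive CD4 T cells isolated with magnetic beads from C57BL/6 spleens, to a purity that the labels put above 90%. They were stimulated with beads carrying antibodies to CD3 and CD28, in the presence of the cytokines IL-6, IL-23 and TGF-β1 and of blocking antibodies to IL-4 and IFN-γ. The control group received the solvent DMSO (2 samples) and the treated group 150 nM JQ1 (2 samples), and both are labelled 48 hours, although the treatment text also mentions a longer stimulation. JQ1 is a small molecule that competes with acetylated histones for the bromodomains of BET proteins, so that these leave chromatin. RNA was read on Affymetrix exon arrays, 1 array per sample, and each value is a log2 signal. Nothing in the labels says that the duplicates are separate mice or separate cultures. The p-values thus reflect only how far these arrays differ, and that spread may be technical.

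Heat shock proteins hold unfolded proteins and help them fold. HSP70 proteins bind short exposed stretches of a chain, J-domain proteins such as DNAJB1 deliver the client and trigger ATP hydrolysis, HSP110 proteins such as HSPH1 exchange the nucleotide, and HSP90 proteins finish clients such as kinases and steroid receptors. HSF1, the master regulator of the heat shock response, is held inactive by chaperones and, when unfolded protein draws them away, binds heat shock elements, which are inverted repeats of the letters GAA. Activated T cells, which make much protein, carry large amounts of these chaperones.

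The promoters of the measured genes are shown because HSF1 is known to act through such sequences. They are the 250 bases before the start of the RefSeq transcript in GRCm38.p6, written 5′ to 3′ on the gene's strand, with each GAANNTTC or TTCNNGAA in capitals. Hspa1a lies on the minus strand (chr17:34972157-34972406), Dnajb1 on the plus strand (chr8:83607925-83608174) and Hsph1 on the minus strand (chr5:149636337-149636586), and where a gene had 2 starts the first listed was taken.
Hspa1a: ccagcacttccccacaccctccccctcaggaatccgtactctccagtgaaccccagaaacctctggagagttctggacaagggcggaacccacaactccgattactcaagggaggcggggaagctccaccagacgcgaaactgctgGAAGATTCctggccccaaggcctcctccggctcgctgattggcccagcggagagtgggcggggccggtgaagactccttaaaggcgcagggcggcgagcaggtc
Dnajb1: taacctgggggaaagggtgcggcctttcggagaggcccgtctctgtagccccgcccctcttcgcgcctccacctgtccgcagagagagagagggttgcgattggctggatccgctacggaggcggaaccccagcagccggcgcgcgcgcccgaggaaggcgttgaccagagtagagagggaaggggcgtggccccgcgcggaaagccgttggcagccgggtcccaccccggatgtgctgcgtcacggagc
Hsph1: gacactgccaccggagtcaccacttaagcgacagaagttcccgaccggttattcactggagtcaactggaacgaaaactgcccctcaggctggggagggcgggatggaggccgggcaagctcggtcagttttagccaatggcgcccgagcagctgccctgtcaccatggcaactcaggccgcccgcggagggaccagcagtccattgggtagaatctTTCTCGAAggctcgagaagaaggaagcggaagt
The search ran over windows of 300 bases, 250 before and 50 after the start, and each of these motifs reads the same on both strands. Hspa1a held 1 GAANNTTC, which begins 104 bases before the start, and the first window of Dnajb1 held neither motif. Hsph1 held a TTCNNGAA that begins 33 bases before the start and, just after the start at base 37, the 3-unit element TTCTGGAAAGTTC, which contains another TTCNNGAA and an overlapping GAANNTTC. Of 32851 RefSeq windows of this length, 7.86% held GAANNTTC, 8.52% held TTCNNGAA and 0.603% held 3 units in a row (GAANNTTCNNGAA or its reverse complement TTCNNGAANNTTC). The windows of Hspa1a and Hspa1b were the same at 296 of 300 bases. The genes themselves are near-identical copies, so the Hspa1a row may also have read Hspa1b transcripts, and the 2 cannot be told apart here. No window was given for Hsp90aa1.

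The comparison of JQ1 with DMSO asks whether these chaperone transcripts differ when BET bromodomains are occupied. The inducible HSP70 gene Hspa1a had a higher signal on both JQ1 arrays, the groups overlapped for its partner gene Dnajb1, the other partner gene Hsph1 had a lower signal on both JQ1 arrays, and the row annotated to Hsp90aa1 had no signal above a background reference. With p-values adjusted by Benjamini-Hochberg over the whole table, no member passed limma's test, and 1 gene of 14860 did (0.00673%), the granzyme gene Gzmb. At an unadjusted p below 0.05, 1 of the 4 members was higher (1.72% of all genes were) and 0 were lower (8.26% of all genes were). The background reference was the 95th percentile of the mean signal of 801 olfactory and vomeronasal receptor genes, 5.79 on the log2 scale.

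Hspa1a (Entrez gene 193740) encodes the stress-inducible cytosolic HSP70, which rests at a low level and is made within minutes of heat or proteotoxic stress. Its log2 signal was 5.92 and 6.17 on the DMSO arrays and 6.64 and 7.29 on the JQ1 arrays. Both JQ1 arrays lay above both DMSO arrays, as they did for 10.0% of all genes, and JQ1 replicate 2 stood highest. The DMSO values lay just above the background reference. The means were 6.04 ± 0.17 (SD, n = 2) with DMSO and 6.96 ± 0.46 with JQ1. The log2 change was 0.92 (SE 0.25, 95% interval 0.28 to 1.55), a 1.89-fold higher signal. Its unadjusted p was 0.0130 in limma, and it did not pass once adjusted (limma adjusted p = 0.390). Only 57 of the 14860 genes had a larger positive change, and 12 of these 57 had a mean above the background reference in at least 1 group. The size of the change rested partly on JQ1 replicate 2, since without it the log2 change was 0.59 and without JQ1 replicate 1 it was 1.24. Without DMSO replicate 1 the unadjusted p was 0.0630. Another row, annotated to Hspa1l and Hspa1a together and so not used, went the other way. Its mean was 5.91 with DMSO and 4.21 with JQ1, and the JQ1 mean lay under the background reference.

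Dnajb1 (Entrez gene 81489) encodes the main inducible J-domain partner of HSP70, also known as HSP40, and is a target of HSF1. Its log2 signal was 7.28 and 7.37 with DMSO and 7.31 and 7.28 with JQ1. The groups overlapped and the 4 arrays lay close together. The log2 change was -0.032 (SE 0.14, 95% interval -0.39 to 0.32), and its sign turned with the scaling of the arrays (0.048 after a further quantile normalization, 0.085 after centring on the median, 0.075 after cyclic loess). It did not pass the limma test (adjusted p = 0.971). The lower bound of the interval for Hspa1a, 0.28, lay within the interval for Dnajb1, and whether these 2 changes differ was not tested.

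Hsph1 (Entrez gene 15505) encodes HSP105, an HSP110 protein that resets HSP70 by nucleotide exchange and is also a target of HSF1. Its log2 signal was 9.70 and 9.48 with DMSO and 9.21 and 9.38 with JQ1, which puts its mean over the arrays at the percentile 95.4 of all genes. Both JQ1 arrays lay below both DMSO arrays, as they did for 31.4% of all genes. The means were 9.59 ± 0.16 (SD, n = 2) and 9.29 ± 0.12, the log2 change was -0.30 (SE 0.16, 95% interval -0.71 to 0.11) and the limma adjusted p was 0.605. The 1013 genes with a mean above 9 had a median change of -0.20, against -0.086 for all genes. After cyclic loess the change of Hsph1 was -0.13. The part of brightness in its change was not tested.

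Hsp90aa1 (Entrez gene 15519) encodes the inducible cytosolic HSP90, HSP90α. The row annotated to it had log2 signals of 3.37 and 4.18 with DMSO and 3.44 and 3.34 with JQ1. The groups overlapped, and DMSO replicate 2 stood above the other three arrays. All 4 values lay under the background reference of 5.79, and the mean of 3.58 lay also under that reference's median of 3.61. The log2 change of -0.38 (SE 0.28, limma adjusted p = 0.713) is thus a difference between values in the range of receptor genes that T cells are not known to express, and without DMSO replicate 2 it was 0.023. Hsp90b1, its relative in the endoplasmic reticulum, had a signal of 11.91 to 12.12 with DMSO on the same arrays. What the probes of the Hsp90aa1 row cover was not tested, so no level of HSP90α is read from it.

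**Figure D1:**
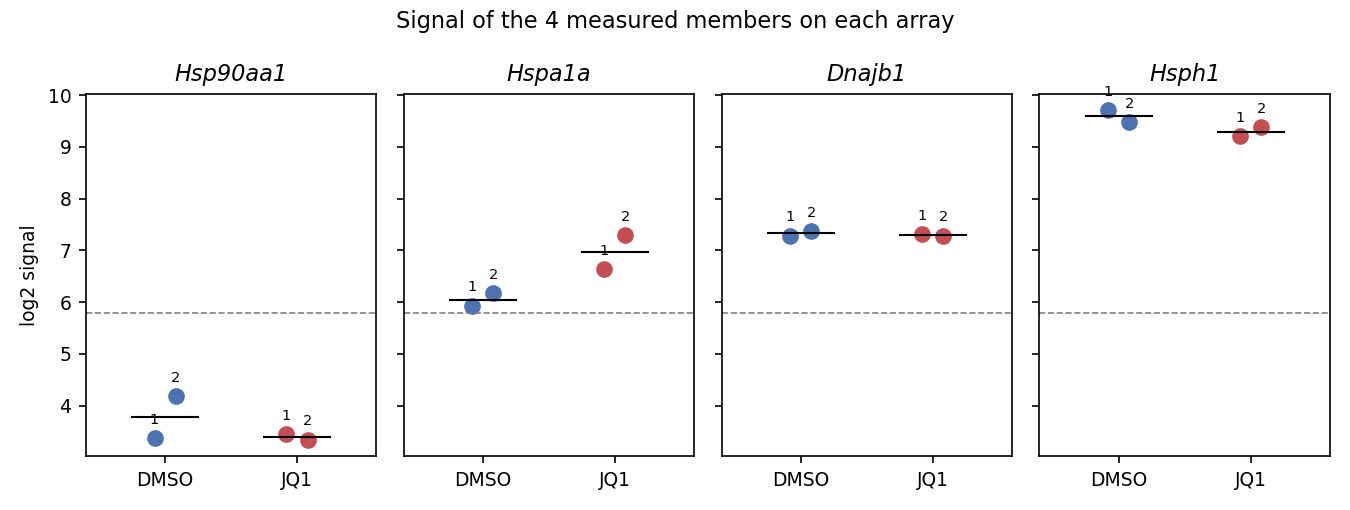
Log2 signal of each measured member on each array, with the replicate number beside each point, a black line at the group mean and the background reference of 5.79 as a dashed line. Hspa1a lies higher on both JQ1 arrays, Dnajb1 overlaps between the groups, Hsph1 lies lower on both JQ1 arrays, and all 4 values of Hsp90aa1 lie under the dashed line.

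Across the 4 members the changes ran from -0.38 to 0.92, with a median of -0.17. That median counts the dim Hsp90aa1 row, and among the 3 brighter members it was -0.032. Over all 4 it was -0.059 after a further quantile normalization, -0.048 after centring, -0.030 after cyclic loess and 0.017 without DMSO replicate 2. The plot of change against brightness shows Hspa1a near the upper edge of the genes of its brightness and the other three within the bulk of theirs.

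**Figure D2:**
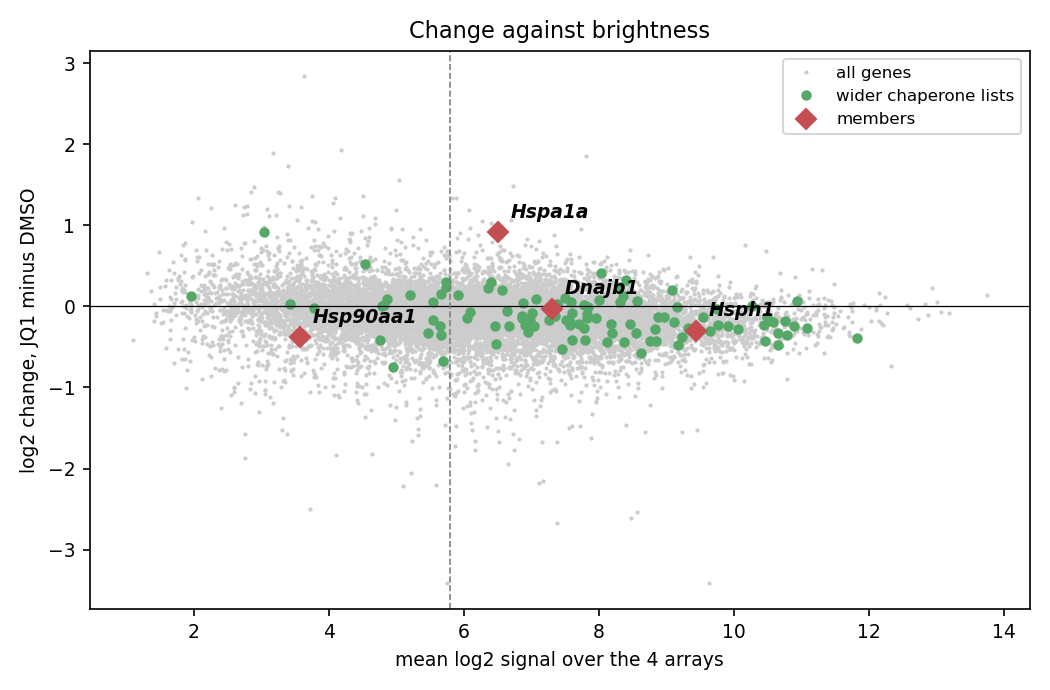
Log2 change (JQ1 minus DMSO) against mean log2 signal over the 4 arrays for all 14860 genes (grey), the 104 measured genes of the wider chaperone lists (green) and the 4 members (red), with the background reference of 5.79 as a dashed line. Hspa1a, at 0.92, lies above all chaperone genes of similar or higher brightness, and Hsp90aa1 lies left of the dashed line.

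The rest of the chaperone network was taken from 11 lists that together held 129 genes, of which 104 had a row. These genes leaned to the lower side, as all genes did. Of the 104, 73 had a lower mean with JQ1 and 31 a higher one. Of all 14860 genes, 9837 were lower and 5023 higher, and the counts of each list below stand against these. The median change of the 104 was -0.17 against -0.086 for all genes. Without JQ1 replicate 1 the median of the 104 was -0.11, and without JQ1 replicate 2 it was -0.23. None of the 104 passed the adjusted limma test. At an unadjusted p below 0.05 there were 12 lower (11.5%) and 0 higher, against 8.26% lower and 1.72% higher among all genes, so the share was near the background. After cyclic loess the median was -0.042 with 60 lower and 44 higher, and 4 lower and 3 higher had an unadjusted p below 0.05. After centring on the median the counts at that level were 3 and 3. Without JQ1 replicate 1 they were 2 lower and 0 higher, without DMSO replicate 1 6 and 2, without DMSO replicate 2 5 and 1, and without JQ1 replicate 2 8 and 1.

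Of the other HSP70 and HSP110 genes, 10 of 11 listed were measured, 8 were lower and 2 higher, with a median change of -0.26 (-0.11 after cyclic loess and -0.17 without DMSO replicate 1). The signals of Hspa4l, an HSP110 relative of Hsph1 and a target of HSF1, were 7.82 and 7.62 with DMSO and 7.15 and 7.24 with JQ1 (log2 change -0.53, SE 0.16, limma adjusted p = 0.391). Hspa9, the mitochondrial HSP70 called mortalin, was at 11.00 and 10.78 with DMSO and 10.32 and 10.51 with JQ1 (log2 change -0.47, SE 0.16, limma adjusted p = 0.448). For both genes the 2 JQ1 arrays lay below both DMSO arrays, as they did for 31.4% of all genes. Hspa13, an HSP70-like protein of microsomes, had a log2 change of -0.32 (SE 0.17). Hspa5, the HSP70 of the endoplasmic reticulum known as BiP, had a log2 change of -0.24 (SE 0.19) with overlapping groups, and is named here for its role.

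The 2 other HSP90 genes differed in sign. Hsp90b1, the GRP94 protein of the endoplasmic reticulum, was at 12.12 and 11.91 with DMSO and 11.58 and 11.68 with JQ1 (log2 change -0.39, SE 0.16, limma adjusted p = 0.502). Trap1, the HSP90 of mitochondria, was at 8.13 and 8.24 with DMSO and 8.30 and 8.56 with JQ1 (log2 change 0.24, SE 0.16, limma adjusted p = 0.681). For Hsp90b1 both JQ1 arrays lay below both DMSO arrays (31.4% of all genes did). For Trap1 both lay above (10.0% of all genes did). Neither gene passed the test.

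Of 45 listed genes for other J-domain proteins, 37 were measured, 25 lower and 12 higher, and the median change was -0.13 (-0.022 after cyclic loess, -0.088 without DMSO replicate 2, -0.073 without JQ1 replicate 1 and -0.21 without JQ1 replicate 2). At an unadjusted p below 0.05 there were 4 lower and 0 higher, a share of 10.8% that is near the 9.98% of all genes. Dnajc6, which encodes auxilin, the J-domain protein that strips clathrin from vesicles, had signals of 6.09 and 5.97 with DMSO and 5.41 and 5.29 with JQ1 (log2 change -0.68, SE 0.15, limma adjusted p = 0.320), and its JQ1 mean lay under the background reference. Dnajb5, a relative of Dnajb1, was at 8.31 and 8.37 with DMSO and 7.90 on both JQ1 arrays (log2 change -0.44, SE 0.14, limma adjusted p = 0.415). Dnajc24, which takes part in the synthesis of diphthamide, had a log2 change of -0.46 (SE 0.16). Dnajb4, another relative of Dnajb1, named after its values were seen, spread from 7.19 to 8.47 between the DMSO arrays alone. Dnajb3 had a log2 change of 0.92, as large as that of Hspa1a, but at means under the background reference and with overlapping groups.

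Among nucleotide exchange factors, 9 of 10 were measured and 0 had an unadjusted limma p below 0.05. Of all genes 9.98% did, so with 9 genes a count of 0 says little. Bag1 had signals of 10.81 and 10.54 with DMSO and 10.13 and 10.37 with JQ1 (log2 change -0.43, SE 0.18), and Bag5 had a log2 change of -0.23. Bag2 was at -0.36, with only its DMSO mean above the background reference, and ranged from -0.59 to -0.13 with 1 array left out. The list's median of -0.20 was -0.080 after cyclic loess, -0.074 without DMSO replicate 1 and -0.012 without JQ1 replicate 1, and it was -0.32 without JQ1 replicate 2. Bag3, the HSF1 target whose protein links HSP70 to autophagy, had a log2 change of -0.23 (SE 0.19) with overlapping groups.

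HSP90 co-chaperones were measured for 16 of 21 genes, 12 lower and 4 higher, with a median change of -0.24. That median was -0.091 after cyclic loess, -0.15 without JQ1 replicate 1 and -0.30 without JQ1 replicate 2. Sugt1, which joins HSP90 to innate immune receptors, was at 8.93 and 9.02 with DMSO and 8.50 and 8.59 with JQ1 (log2 change -0.43, SE 0.14, limma adjusted p = 0.436). Ahsa2, a relative of the ATPase activator Ahsa1, had a log2 change of -0.43 (SE 0.16), and the cyclophilin gene Ppid -0.38 (SE 0.17). For these 3 genes both JQ1 arrays lay below both DMSO arrays, as they did for 31.4% of all genes. Stip1, which bridges HSP70 and HSP90, was at -0.25 (SE 0.17), and Ptges3, which encodes the late-acting cofactor p23, at 0.20 (SE 0.15).

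Genes of TRiC, the ring-shaped cytosolic chaperonin that folds actin and tubulin, were measured for 7 of 9, all 7 lower, with a median change of -0.32. Cct3 was at 8.92 and 8.90 with DMSO and 8.26 and 8.40 with JQ1 (log2 change -0.58, SE 0.15, limma adjusted p = 0.360). Cct7 had a log2 change of -0.48 (SE 0.18) and Cct5 -0.36 (SE 0.16), while Cct4 was at -0.0060 (SE 0.19). Cct6b, at -0.017, lay under the background reference in both groups, and without such dim genes the other 6 had a median of -0.34. After cyclic loess the median of the 7 was -0.17, with 6 lower and 1 higher, and after centring 5 were lower and 2 higher. Without DMSO replicate 1 the median was -0.20, also with 5 lower and 2 higher. Without DMSO replicate 2 it was -0.45, with all 7 lower. All 5 measured genes of prefoldin, which passes new chains to TRiC, were lower as well, led by Pfdn1 (log2 change -0.44, SE 0.17), with Pfdn2 at -0.18 and Pfdn4 at -0.17, and 3 of the 5 were lower after cyclic loess. Their median of -0.17 was -0.023 after cyclic loess, -0.086 without JQ1 replicate 1 and -0.25 without JQ1 replicate 2.

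The mitochondrial chaperones and proteases, 13 measured, were divided into 9 lower and 4 higher with a median of -0.082, and after cyclic loess into 5 and 8. Without JQ1 replicate 1 the median was 0.0087 with 6 lower and 7 higher, and it was -0.16 without DMSO replicate 1 and -0.17 without JQ1 replicate 2. Besides Hspa9, Htra2, a protease of the space between the membranes, had a log2 change of -0.41 (SE 0.16), and Clpx, the unfoldase of the matrix protease, -0.27 (SE 0.15). The small heat shock proteins, 7 measured, had a median of 0.016, and all 7 had overlapping groups. That median was -0.037 without DMSO replicate 1 and -0.018 without JQ1 replicate 1, and leaving out DMSO replicate 2 gave 0.098. Of these, Hspb2 was at 0.30, Hspb6 at -0.14 and Cryaa at 0.22, and only 3 of the 7 had a mean above the background reference in at least 1 group.

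The factors that control the response were measured for 4 genes. Hsf2, which can pair with HSF1, was at 6.77 and 7.23 with DMSO and 7.13 and 6.54 with JQ1 (log2 change -0.17, SE 0.27). Hsbp1, which binds and restrains HSF1, was at 9.75 and 9.79 with DMSO and 9.62 and 9.85 with JQ1 (log2 change -0.035, SE 0.15), and its sign turned after each of the 3 scalings. Groups overlapped for both genes. Both Hsf3 and Hsf4 had means under the background reference.

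A list of known HSF1 targets outside the members, which shares genes with the lists above, held 12 measured genes of 16. Of these, 10 were lower and 2 higher, with a median change of -0.24. Only 1 (8.33%), Hspa4l, had an unadjusted limma p below 0.05, near the 9.98% of all genes. The ATPase activator gene Ahsa1 was at 10.15 and 10.27 with DMSO and 9.81 and 10.05 with JQ1 (log2 change -0.28, SE 0.16), and Chordc1 had a log2 change of -0.26 (SE 0.15). Of the 12, 0 had both JQ1 arrays above both DMSO arrays (10.0% of all genes did) and 6 had both below (31.4% of all genes did). After cyclic loess 8 of the 12 were lower and 4 higher, with a median of -0.091. The median was -0.15 without JQ1 replicate 1 and -0.33 without JQ1 replicate 2. The 26 genes of all wider lists with a mean above 9 had a median change of -0.24, against -0.20 for all genes of that brightness.

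**Figure D3:**
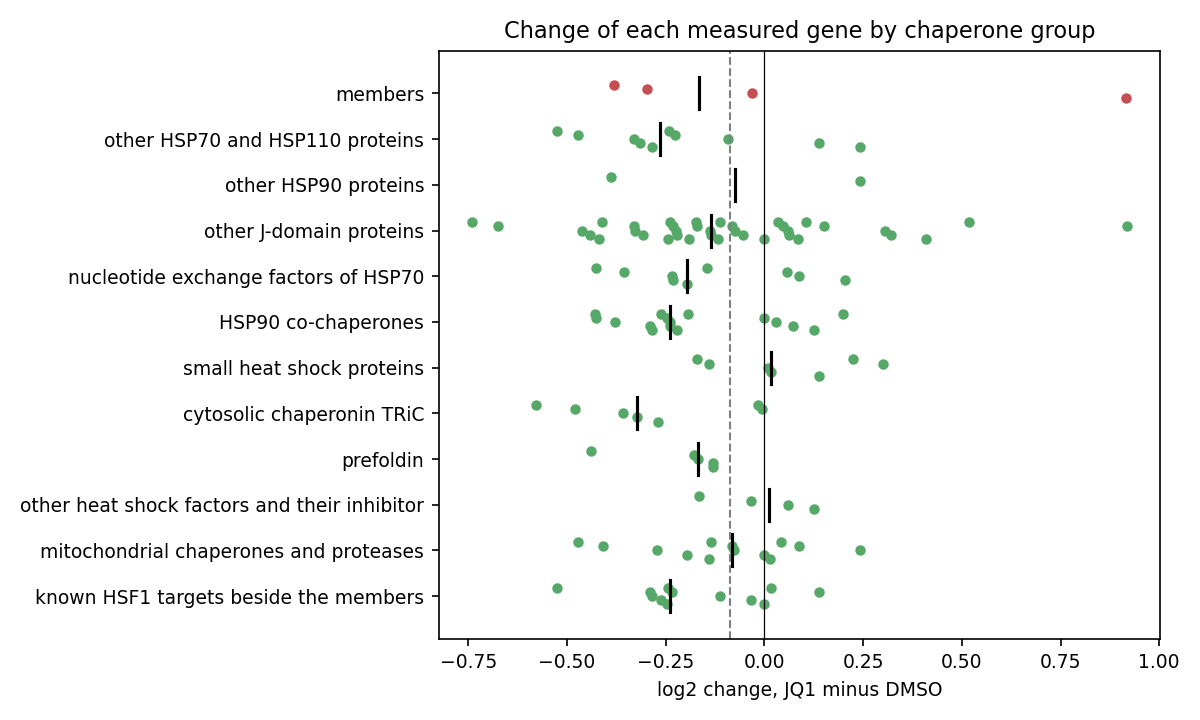
Log2 change (JQ1 minus DMSO) of each measured gene, by chaperone list, with a black bar at the median of each list, a dashed line at the median of all genes (-0.086) and the members in red. Genes can stand in more than 1 list. Hspa1a is the red point at 0.92, and the 7 TRiC genes all lie left of 0.

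The 5 genes whose pattern over the 4 arrays lay closest to the mean centred pattern of the members (above the background reference, by Euclidean distance) were Rbl1, Zdhhc5, Tdp2, Tubgcp2 and Rpl8, at distances of 0.0086 to 0.026 log2 units. That mean pattern ran from -0.14 to 0.11 and averages members whose changes differed in sign and did not pass the test. Among them is the Hsp90aa1 row, under the background reference on all 4 arrays and highest on DMSO replicate 2 (4.18). The part of that row in the likeness was not tested. With 4 arrays, such a likeness is only a description.

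The T cell identity of the samples was checked on its markers. The 6 measured genes for the T cell receptor complex and pan-T proteins, together with Cd4, were above the background reference, 5 of 6 TH17 markers were above it on at least 1 array, as were 2 of 2 CD8 markers, 3 of 4 B cell markers and 1 of 2 natural killer markers. Of 4 myeloid and 2 red blood cell markers, 0 were above it on any array. The log2 of the summed linear signals of the TH17 markers was 11.79 to 12.04 with DMSO and 9.42 to 9.51 with JQ1. Il17f weighed most in it with DMSO, with means of 11.34 with DMSO and 7.93 with JQ1. All 6 TH17 markers were lower, with log2 changes of -3.41 to -0.83. The same sum was 7.48 to 7.50 with DMSO and 6.56 to 7.16 with JQ1 for 2 CD8 markers. For 2 natural killer markers it was 6.83 to 7.07 and 5.43 to 5.77, with Klrd1 at a log2 change of -1.73 and Ncr1, under the reference, at -0.091. For 4 B cell markers it was 7.69 to 7.81 and 7.38 to 7.47, with 3 lower and Ms4a1, under the reference, higher (0.30). For the 6 T cell receptor complex and pan-T genes it was 13.02 to 13.36 and 12.92 to 13.04. For 2 CD4 markers it was 9.09 to 9.23 and 9.13 to 9.14. The part of these cell types in the changes of the chaperone genes was not tested. In bulk RNA, fewer cells of a type and less RNA per cell cannot be told apart. As a description across genes, arrays correlated at 0.981 (DMSO) and 0.982 (JQ1) within a group and at 0.976 to 0.980 between groups.

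**Figure D4:**
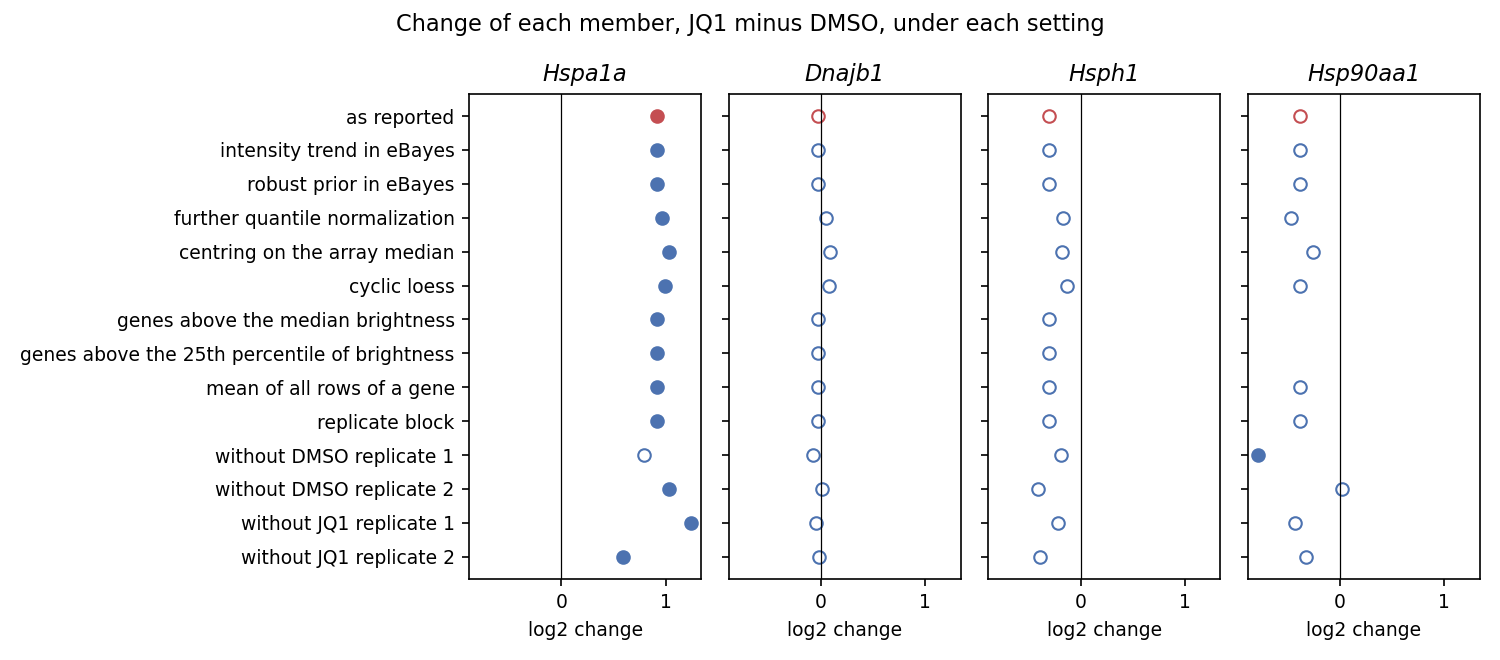
Log2 change (JQ1 minus DMSO) of each member as reported (red) and under each alternative setting (blue), with filled points where the unadjusted limma p was below 0.05. The points of Hspa1a all lie between 0.59 and 1.24, those of Dnajb1 lie on both sides of 0, those of Hsph1 lie between -0.41 and -0.13, and Hsp90aa1 has no point where dim genes were removed.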

How the data were processed

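The deposited values are log2 signals that, per the submitters' processing notes, the authors made with RMA in Affymetrix Expression Console. RMA corrects background, quantile-normalizes arrays and summarises probes. The sources used here give neither versions nor the row definition. The notes name hg19, a human build, for mouse samples, so promoter coordinates are those of RefSeq's GRCm38.p6.

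Of 23332 rows, 14996 had 1 gene, 1019 several and 7317 none in GEO's platform annotation. Entrez identifiers of 14941 rows matched RefSeq symbols. For 135 genes with several rows the brightest stood, giving 14860 genes. No dim gene was removed.

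JQ1 was compared with DMSO in limma 3.58.1 (R 4.3.3; lmFit and eBayes, two-sided, degrees of freedom 2 residual and 3.43 prior). The p-values were adjusted by Benjamini-Hochberg over all genes, with calls at 0.05. SEs are limma's moderated ones. An exact permutation test of 2 against 2 arrays cannot go below p = 0.333, and the number of arrays limits precision. The fit was tested on simulated data. Figures used matplotlib 3.10.9.

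Members and lists were chosen with earlier results of these data known, so no p is adjusted over a list. Named genes are all members and, per wider list, up to 3 with the smallest p among genes above the background reference in at least 1 group. Others (Hspa5, Bag3, Stip1, Ptges3, Cct4, Dnajb3, Dnajb4, Hsf3 and Hsf4) are named for their role or values, chosen after the values were seen. Alternatives were an intensity trend or a robust prior in the variance model, 3 scalings and 2 brightness filters. The others were averaging a gene's rows, the replicate number as a block, and each array left out.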

Additional observations from a re-analysis of the deposited data

How the results depend on the processing

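No member passed the limma test over all genes under any of the 13 alternatives, and none of the wider chaperone genes did. Hspa1a kept a positive change in all 13, from 0.59 to 1.24. Both variance models, both brightness filters, row averaging and the replicate block left it at 0.92, so they did not test its sign. Leaving out 1 array could not turn that sign, since both JQ1 arrays lay above both DMSO arrays. Centring moved the change of every gene up by the same amount (median of all genes from -0.086 to 0.031), so it could not turn that sign either. After the scalings the change of Hspa1a was 0.96 (quantile normalization), 1.03 (centring) and 0.998 (cyclic loess). With no array left out, its limma unadjusted p was below 0.05 throughout, with adjusted p from 0.151 to 0.432. Without 1 array, the members higher at an unadjusted p below 0.05 numbered 0 to 1 and those lower 0 to 1, the member lower being Hsp90aa1 without DMSO replicate 1 (-0.79). The median change of the members ranged from -0.17 to 0.017 with 1 array left out. Hsp90aa1 could not be tested among brighter genes, since its row fell under both brightness limits.

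Dnajb1 turned positive after a further quantile normalization (0.048), centring (0.085) and cyclic loess (0.075). Hsbp1 did so after quantile normalization (0.12), centring (0.083) and cyclic loess (0.13). Signs also turned with 1 array left out, where the changes ranged from -0.79 to 0.023 for Hsp90aa1, -0.075 to 0.012 for Dnajb1, -0.15 to 0.076 for Hsbp1, -0.048 to 0.65 for Hspb2, -0.32 to 0.038 for Hspb6, -0.13 to 0.58 for Cryaa and -0.46 to 0.13 for Hsf2.

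Wider chaperone genes lower at an unadjusted p below 0.05 numbered 12 as reported, 5 after quantile normalization, 3 after centring, 4 after cyclic loess and 2 to 8 with 1 array left out. Those higher numbered 0, 2, 3, 3 and 0 to 2. Over all genes 1 passed as reported, 3 with an intensity trend, 50 above the median brightness, 9 above its 25th percentile, and 0 with 1 array left out or with the replicate number as a block. These filters test fewer genes. The causes of the other shifts were not tested. The median change of all genes was -0.086 as reported, -0.054 after quantile normalization, 0.031 after centring and -0.012 after cyclic loess. At an unadjusted p below 0.05, 1228 genes were lower and 255 higher as reported, 679 and 572 after centring, and 855 and 481 after cyclic loess. With the replicate block Hspa1a had an unadjusted p of 0.00512 (limma adjusted p = 0.360), and no member's call changed. No label says what a replicate number shares, and the deviations of same-numbered arrays correlated at 0.097 across genes.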

Other observations

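A further row of the table is annotated to both Hspa1l and Hspa1a, which are neighbouring HSP70 genes, and was left out because it names no single gene. Its log2 signal was 6.10 and 5.72 on the DMSO arrays and 4.19 and 4.23 on the JQ1 arrays, a difference of -1.70 between the means, without a test. This row was lower on both JQ1 arrays, while the row annotated to Hspa1a alone was higher on both. Which transcript either row reads was not tested.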
